A study of Mus musculus with 22 samples.

Results

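The 35 lysosome and autophagy genes described here were taken by symbol from an expression table of 18487 genes in mouse embryonic stem cells treated with compounds that act on chromatin. All 35 were found in the table, none was listed at 0 in any library, and all 35 were among the 17275 genes that passed the filter on low values. Their roles are transcription factors (3 genes), lysosomal membrane glycoproteins (2), cathepsins (5), glycosidases (7), lipid handling and an ion channel (4), proton pump subunits (3), a cargo receptor with ATG8 proteins (5), and autophagy initiation and conjugation (6). The cells were of the E14 line, an established embryonic stem cell line, with no transgene or targeted allele named in the labels, and the study's methods describe growth in serum with LIF. Poly(A)-enriched RNA was sequenced in 22 libraries of 11 groups, with 2 libraries per group. Each of 10 groups received 1 compound, and the remaining group, labelled NC, is the only one whose label names no compound and served as the reference. No label gave a dose or an exposure time, so whether the compounds were matched on either is not known.

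DZNep inhibits S-adenosylhomocysteine hydrolase and so acts on methylation broadly. Valproate is a histone deacetylase inhibitor, and Bromosporine occupies the bromodomains that bind acetylated lysine. MS023 inhibits type I protein arginine methyltransferases, and IOX1 inhibits oxygenases that use 2-oxoglutarate. Chaetocin and UNC0379 target lysine methyltransferases, while CPTH2 and Garcinol target histone acetyltransferases. The label OICR gives no fuller name.

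Lysosomes are acidic organelles in which hydrolases break down material delivered by endocytosis and autophagy. Many lysosomal and autophagy genes are controlled by the MiT family of transcription factors, TFEB, TFE3 and MITF, which bind E-box sequences with the core CACGTG. The longer form TCACGTGA is the centre of the element known as CLEAR. In embryonic stem cells, TFE3 is known for its part in exit from pluripotency, in which its entry to the nucleus is held back or allowed. In autophagy, the ULK1 kinase and a Beclin 1 lipid kinase complex start a membrane that ATG8 proteins coat, and receptors such as p62 bring cargo to it.

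The E-box was looked for in RefSeq promoter windows of 250 bases before to 50 bases after each gene's start (GRCm38.p6, the assembly known as mm10). Of the 35 genes, 30 had a window, and Atp6v1h, Becn1, Ctsb, Map1lc3a and Npc1 had none. TCACGTGA was present in a window of 5 of the 30 genes (16.7%), compared with 304 of all 27025 genes with a window (1.12%). CACGTG, which every TCACGTGA contains, was present in 12 of the 30 (40%), compared with 8.09% of all genes with a window. Both motifs read the same on either strand. The 12 genes were Atg5, Atg7, Atp6v0d1, Ctsa, Ctsd, Ctsl, Gaa, Gla, Glb1, Lamp1, Mcoln1 and Naglu. One stretch from each of the 5 genes with the longer form is shown because it holds the sequence the MiT family is known for. Another is from Glb1 because that gene had the largest change against NC of the 35 genes. Capitals mark the motif.
Ctsd (chr7:142387894-142387951, minus strand): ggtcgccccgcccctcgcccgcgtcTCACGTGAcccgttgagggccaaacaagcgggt
Mcoln1 (chr8:3500448-3500505, plus strand): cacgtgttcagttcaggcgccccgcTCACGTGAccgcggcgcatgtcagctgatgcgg
Gla (chrX:134601168-134601225, minus strand): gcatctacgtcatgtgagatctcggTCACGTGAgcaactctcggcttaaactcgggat
Ctsa (chr2:164833735-164833792, plus strand): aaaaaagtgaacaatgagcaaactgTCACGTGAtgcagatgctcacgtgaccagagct
Atp6v0d1 (chr8:105566036-105566093, minus strand): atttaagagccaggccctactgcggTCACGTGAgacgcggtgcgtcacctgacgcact
Glb1 (chr9:114401005-114401060, plus strand): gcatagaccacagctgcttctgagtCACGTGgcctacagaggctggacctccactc
The first base of the motif lay 99 bases before the annotated start in Ctsd, 46 in Mcoln1, 195 in Gla, 13 in Ctsa, 4 in Atp6v0d1 and 48 in Glb1. Ctsa had 2 windows, so its distance refers to 1 of its annotated starts. Gla and Ctsa each held another copy. The window of Lamp1 held 4 copies of CACGTG. These letters were not in the windows of Gusb, Ctsz and Sqstm1. A match describes the sequence and does not show binding.

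Values are read counts per gene after full-quantile normalization, rounded to whole numbers, and are called normalized read counts. Every library therefore has nearly the same set of values, with a median of 409 and a total between 38403767 and 38419709, which hides how deeply each library was sequenced. The study's methods give a target depth common to all of its RNA-seq. Identical values also arise in this way, as for Psap, at 18306 in both Valproate libraries. All 10 stem cell markers examined were present in every library, the lowest value being 823. Fibroblast markers summed to 27 to 1874 per library. Dcn was at 0 in all 22, while Col3a1 reached 851, Postn 819, Thy1 358, Lum 346, Col1a1 327 and Col1a2 47. Some of these values went on and off between libraries of a group. Col3a1 measured 4 and 743 in NC, and Postn was at 0 in 12 of the 22 libraries. Primitive endoderm markers summed to 206 to 799. Of 6 macrophage markers only Ptprc was in the table, at 0 in 21 libraries and at 438 in DZNep library 2. The labels do not say that the 2 libraries of a group came from separate cultures, so the p-values measure only the spread between these libraries. In RNA from whole cultures, fewer cells of a type and less RNA per cell cannot be told apart.

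Which of the 35 genes differed between any of the groups was asked first. By limma's F-test over the 11 groups, adjusted by the Benjamini-Hochberg method over all tested genes, 7 of the 35 (20%) had an adjusted p under 0.05, against 29.7% of all tested genes. They were Gusb (adjusted p = 0.000105), Sqstm1 (0.000354), Glb1 (0.00124), Ulk1 (0.00264), Map1lc3a (0.00485), Ctsz (0.0195) and Becn1 (0.0286).

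Against NC, calls required both an adjusted p under 0.05 in limma's moderated test and a change over 2-fold. On this rule 4 genes were called, in 5 pairs of gene and compound. With Bromosporine, 2 of 35 were called (5.71%, beside 3.34% of all tested genes), Ctsz and Gusb, both lower. With DZNep, 1 was called (2.86%, beside 11.4% of all genes), Glb1, which was lower. With Valproate, 1 was called (5.28% of all genes), Gusb, also lower. With MS023, 1 was called (0.973% of all genes), Sqstm1, which was higher. No member was called with the other 6 compounds. The shares of all genes called with them were 0.388% for OICR, 0.116% for IOX1, 0.0174% for Chaetocin, 0.00579% each for CPTH2 and Garcinol, and 0% for UNC0379. The number of members at an unadjusted p under 0.05 was 1 with OICR, 2 with IOX1, 1 with Chaetocin, 0 with CPTH2, 3 with Garcinol and 2 with UNC0379. With the library number as a block, 12 pairs of gene and compound were called, the 5 above among them. The shares of all genes called were then 15.1% with DZNep, 8.61% with Valproate, 6.88% with Bromosporine and 2.8% with MS023.

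**Figure D1:**
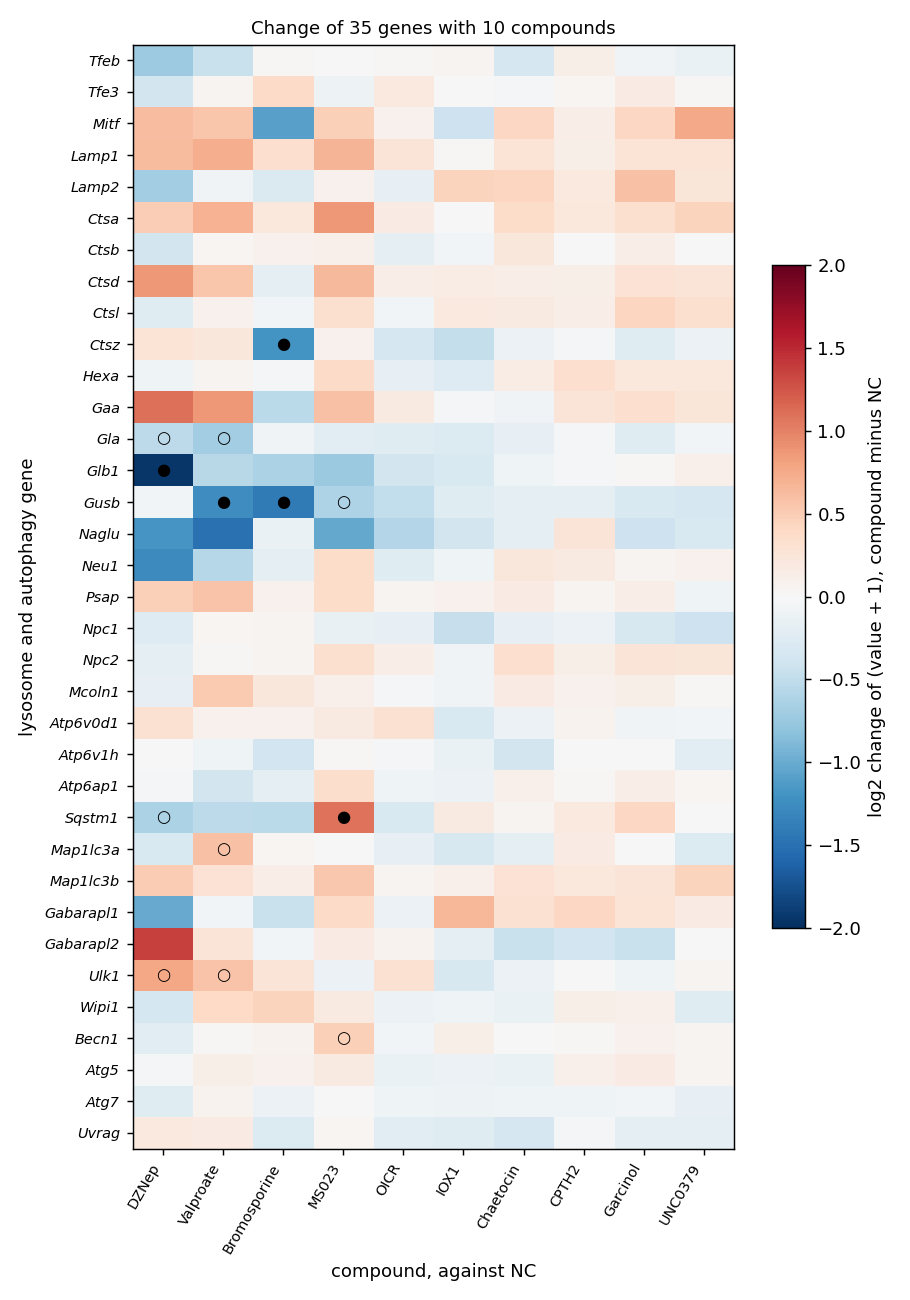
Log2 change of each of the 35 genes (rows) with each of 10 compounds (columns) against NC, from red (higher) to blue (lower). A filled circle marks a call and an open circle an adjusted p under 0.05 with a smaller fold. Circles are found only in the columns of DZNep, Valproate, Bromosporine and MS023.

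On the adjusted p alone, whatever the fold, 4 members passed with DZNep (23.6% of all genes), 4 with Valproate (10.3%), 3 with MS023 (2.21%) and 2 with Bromosporine (5.4%). The additional genes were Gla, Sqstm1 and Ulk1 with DZNep, Gla, Map1lc3a and Ulk1 with Valproate, and Gusb and Becn1 with MS023. Gla, Map1lc3a and Becn1, and below also Naglu, Neu1, Gaa, Gabarapl1 and Ctsd, are described because of values already seen. In fits of only NC and the compound, none of these 8 pairs passed (adjusted p from 0.0589 for Ulk1 with DZNep to 0.304 for Ulk1 with Valproate). The DZNep share lies below that of all genes and the Valproate share near it.

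None of the MiT transcription factors passed the test with any compound. Tfeb, a master regulator of lysosomal genes, had its lowest group mean with DZNep. Libraries 1 and 2 held 2294 and 2970 in NC, 1281 and 1923 with DZNep, 1551 and 2347 with Valproate, 2341 and 3018 with Bromosporine and 2493 and 2720 with MS023. Tfeb measured 2242 and 3106 with OICR, 2158 and 3394 with IOX1, 1690 and 2529 with Chaetocin, 2423 and 3264 with CPTH2, 2233 and 2777 with Garcinol and 1888 and 2994 with UNC0379. Both DZNep values lay below both NC values, a log2 change of -0.73 (SE 0.32) with an adjusted p of 0.121 by limma. In all 11 groups the library numbered 2 was the higher.

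Tfe3, the family member known from exit from pluripotency, varied least of these genes, with group means within 0.75 on the log2 scale. The values of libraries 1 and 2 were 2668 and 2560 in NC, 2313 and 1761 with DZNep, 2659 and 2805 with Valproate, 3609 and 3190 with Bromosporine and 2570 and 2329 with MS023. Tfe3 measured 3152 and 2840 with OICR, 2970 and 2318 with IOX1, 2720 and 2383 with Chaetocin, 3005 and 2413 with CPTH2, 3264 and 2642 with Garcinol and 2805 and 2502 with UNC0379. The highest mean, with Bromosporine, differed from NC by 0.38 (SE 0.16, adjusted p = 0.229), and the lowest, with DZNep, by -0.37 (SE 0.16, adjusted p = 0.122).

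Mitf, the family member best known from melanocytes, varied most, with group means 1.83 apart on the log2 scale. Its 2 libraries per group held 592 and 446 in NC, 1248 and 496 with DZNep, 955 and 591 with Valproate, 234 and 252 with Bromosporine and 1014 and 510 with MS023. Mitf measured 740 and 396 with OICR, 439 and 336 with IOX1, 963 and 486 with Chaetocin, 866 and 370 with CPTH2, 917 and 509 with Garcinol and 1221 and 612 with UNC0379. Both Bromosporine values lay below every other library, yet the change against NC of -1.08 (SE 0.57) had an adjusted p of 0.342. The spread within groups was wide, since in DZNep the values were 1248 and 496. Library 1 was the higher in 10 of the 11 groups. With the library number as a block in the limma fit, the Bromosporine change was called (adjusted p = 0.0165).

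LAMP1 and LAMP2 are the main glycoproteins of the lysosomal membrane. Neither passed the test with any compound. Lamp2 showed the larger range of group means (1.29 on the log2 scale). Libraries 1 and 2 measured 4329 and 2398 in NC, 2824 and 1398 with DZNep, 5332 and 1762 with Valproate, 3180 and 2182 with Bromosporine and 4245 and 2737 with MS023. Lamp2 measured 3970 and 2060 with OICR, 6538 and 2945 with IOX1, 7005 and 2682 with Chaetocin, 5840 and 2324 with CPTH2, 6290 and 3759 with Garcinol and 5547 and 2604 with UNC0379. The library numbered 1 was higher in each of the 11 groups, by 0.54 to 1.60 on the log2 scale, beside 1.29 between the lowest and highest group means. Lamp1 ranged from 8421 to 20208.

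The cathepsins are the proteases of the lysosome. One of the 5 was called, with 1 compound. Ctsz (cathepsin Z, chr2:174427493-174439039, minus strand, mm10) fell with Bromosporine. In libraries 1 and 2 it measured 1141 and 758 in NC, 1090 and 1177 with DZNep, 1428 and 824 with Valproate, 453 and 368 with Bromosporine and 918 and 1070 with MS023. Ctsz measured 702 and 779 with OICR, 758 and 589 with IOX1, 996 and 737 with Chaetocin, 994 and 835 with CPTH2, 788 and 771 with Garcinol and 945 and 779 with UNC0379. Both Bromosporine values lay below every other library, the next being 589 with IOX1. The means were 949.5 ± 270.8 in NC and 410.5 ± 60.1 with Bromosporine (SD, n = 2 each), 2.27-fold lower, a log2 change of -1.19 (SE 0.26, adjusted p = 0.0171). The call was lost without NC library 1 (-0.89, adjusted p = 0.188), without Bromosporine library 1 (adjusted p = 0.054) or library 2 (0.108), and in a fit of only the NC and Bromosporine libraries (0.142). Ctsz overlaps Nelfcd on the opposite strand, and shares 0% of its 31-base stretches with transcripts of other genes.

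No other cathepsin passed against NC. Ctsa, Ctsb, Ctsd and Ctsl encode cathepsins A, B, D and L. Ctsd, the main aspartic protease of lysosomes, had the widest range of group means of these 4 (1.07 on the log2 scale), with libraries from 6943 to 19187. Its NC values were 10778 and 7051 and its DZNep values 19187 and 13304. All 5 cathepsins of the 35 genes had a mean change above 0 with MS023, between 0.09 and 0.87 on the log2 scale. With Valproate it was between 0.04 and 0.69, and none of these passed. Cathepsin genes outside the 35, named after their values were seen, went both ways. Ctsf measured 446 and 433 in NC, 211 and 280 with MS023 and 169 and 260 with Valproate. Ctsk measured 35 and 38 in NC and 53 and 52 with MS023, and Ctsh 17 and 17 in NC and 31 and 22 with Valproate. With Chaetocin, CPTH2, Garcinol and UNC0379, 4 of the 5 were above 0, with DZNep and IOX1 3, and with Bromosporine and OICR 2. Of all 17275 tested genes, 8146 were above 0 with MS023 and 8134 with Valproate.

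The glycosidases remove sugars from glycoproteins, glycolipids and glycosaminoglycans. They held 3 of the 5 calls, all lower than NC. Glb1 (β-galactosidase, whose activity at raised pH is a widely used stain for senescent cells, chr9:114401076-114474898, plus strand, mm10) fell with DZNep. The 2 libraries gave 4605 and 3259 in NC, 1082 and 923 with DZNep, 3085 and 2254 with Valproate, 2725 and 2269 with Bromosporine and 2545 and 2111 with MS023. Glb1 measured 3422 and 2638 with OICR, 3746 and 2601 with IOX1, 4354 and 3053 with Chaetocin, 4223 and 3387 with CPTH2, 4421 and 3553 with Garcinol and 4474 and 3876 with UNC0379. Both DZNep values lay below every other library, the next being 2111 with MS023. The mean went from 3932 ± 951.8 to 1002.5 ± 112.4 (SD, n = 2 each), 3.87-fold lower, a log2 change of -1.95 (SE 0.25, adjusted p = 0.000141). This call held without either library of NC or DZNep. Glb1 overlaps Tmppe on the same strand and shares 4.82% of its 31-base stretches with it.

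Gusb (β-glucuronidase, chr5:129989011-130003049, minus strand, mm10) fell with both Bromosporine and Valproate. Read counts in libraries 1 and 2 were 1389 and 1143 in NC, 1212 and 1202 with DZNep, 472 and 594 with Valproate, 433 and 518 with Bromosporine and 742 and 902 with MS023. Gusb measured 865 and 934 with OICR, 1024 and 1107 with IOX1, 1075 and 1130 with Chaetocin, 1078 and 1145 with CPTH2, 1046 and 997 with Garcinol and 987 and 1016 with UNC0379. The values with Bromosporine and Valproate, 433 to 594, lay below those of all other groups, the next being 742 with MS023. From an NC mean of 1266 ± 173.9 (SD, n = 2) Gusb was 2.66-fold lower with Bromosporine, at 475.5 ± 60.1 (log2 change -1.41, SE 0.14, adjusted p = 0.000148). It was 2.38-fold lower with Valproate, at 533 ± 86.3 (log2 change -1.25, SE 0.14, adjusted p = 0.000157). With DZNep it measured 1207 ± 7.07. Both calls held without any single library. In fits of only NC and the compound they did not pass (adjusted p = 0.0845 with Bromosporine and 0.0918 with Valproate). Against the mean of the other 9 compounds, the change with Valproate was -0.82, under the fold threshold.

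With MS023, Gusb fell by 0.62 on the log2 scale (SE 0.14, adjusted p = 0.0367), less than the fold threshold. That p rose above 0.05 without MS023 library 1 (0.299), MS023 library 2 (0.0604), NC library 1 (0.298) or NC library 2 (0.0519). Against the mean of the other 9 compounds the change was -0.13 (adjusted p = 0.556).

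Gla (α-galactosidase A), whose window holds TCACGTGA, measured 811 and 682 in NC, 420 and 630 with DZNep, and 457 and 463 with Valproate. It fell by 0.53 with DZNep (SE 0.17, adjusted p = 0.0346) and by 0.69 with Valproate (SE 0.17, adjusted p = 0.0182) on the log2 scale. Without DZNep library 1 the first of these was -0.24 (adjusted p = 0.313), and without NC library 1 it was -0.41 (0.249). The Valproate value did not pass without NC library 1 (adjusted p = 0.148), Valproate library 1 (0.0918) or Valproate library 2 (0.0629).

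Other glycosidases differed from NC by over 2-fold without passing. Neu1 (neuraminidase 1) measured 2386 and 1362 in NC and 818 and 679 with DZNep, a log2 change of -1.27 (SE 0.47, adjusted p = 0.0652). Naglu (α-N-acetylglucosaminidase) measured 173 and 99 in NC and 47 and 45 with Valproate (-1.49, SE 0.47, adjusted p = 0.0604). It measured 52 and 63 with DZNep (-1.18, adjusted p = 0.0862) and 55 and 75 with MS023 (-1.02, adjusted p = 0.329). Gaa (acid α-glucosidase, which breaks down glycogen) differed in the other direction, at 4822 and 3412 in NC and 10157 and 7450 with DZNep (1.10, SE 0.38, adjusted p = 0.0503). In each of these the compound's values lay outside those of NC, but the NC libraries themselves stood far apart. Library 1 was the higher in 10 of the 11 groups for Neu1 and Gaa and in 9 for Naglu. With the library number as a block in the limma fit, Neu1 (adjusted p = 0.000728) and Gaa (0.000377) were called with DZNep. Naglu was then called with DZNep (0.0152) and Valproate (0.00807), and not with MS023 (0.0806). Hexa, the α subunit of β-hexosaminidase, passed with no compound.

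Over the 7 glycosidases, the median log2 change was -0.569 with Valproate and -0.531 with DZNep, beside -0.023 and -0.036 over all tested genes. It was also below 0 with IOX1 (-0.259), OICR (-0.246), MS023 (-0.23), Bromosporine (-0.176) and Chaetocin (-0.088). It was above 0 with CPTH2 (0.181), UNC0379 (0.092) and Garcinol (0.033). Over 38 other lysosomal hydrolases and cofactors it was -0.145 with Valproate and -0.365 with DZNep. These 38 hold further glycosidases, of which Manba and Galc are named after their values were seen. With DZNep, Manba was higher (log2 change 0.85, adjusted p = 0.0487 by limma) and Galc lower (-0.69, 0.0228). Galc was also lower with Valproate (-0.80, 0.0216). With DZNep 2 of the 7 passed on the adjusted p, both lower, with Valproate 2, both lower, with MS023 1, lower, and with Bromosporine 1, lower. The shares of the 7 were 28.6%, 28.6%, 14.3% and 14.3%, beside 23.6%, 10.3%, 2.21% and 5.4% of all genes. The fibroblast markers summed to 1612 and 1874 with DZNep and 1554 and 1422 with Valproate, beside 528 and 1368 in NC. Of the 6 of them tested, 2 were called higher with each of these compounds and 1 lower with Bromosporine, and the other markers did not pass. Primitive endoderm markers summed to 412 and 799 with DZNep, 391 and 617 with Valproate and 457 and 389 in NC, and with DZNep 1 of the 6 tested was called higher (Dab2) and 1 lower (Gata4). Of the stem cell markers, 2 were called higher with DZNep and 1 each with Valproate, Bromosporine and OICR. The part of these cells in the values was not tested.

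**Figure D2:**
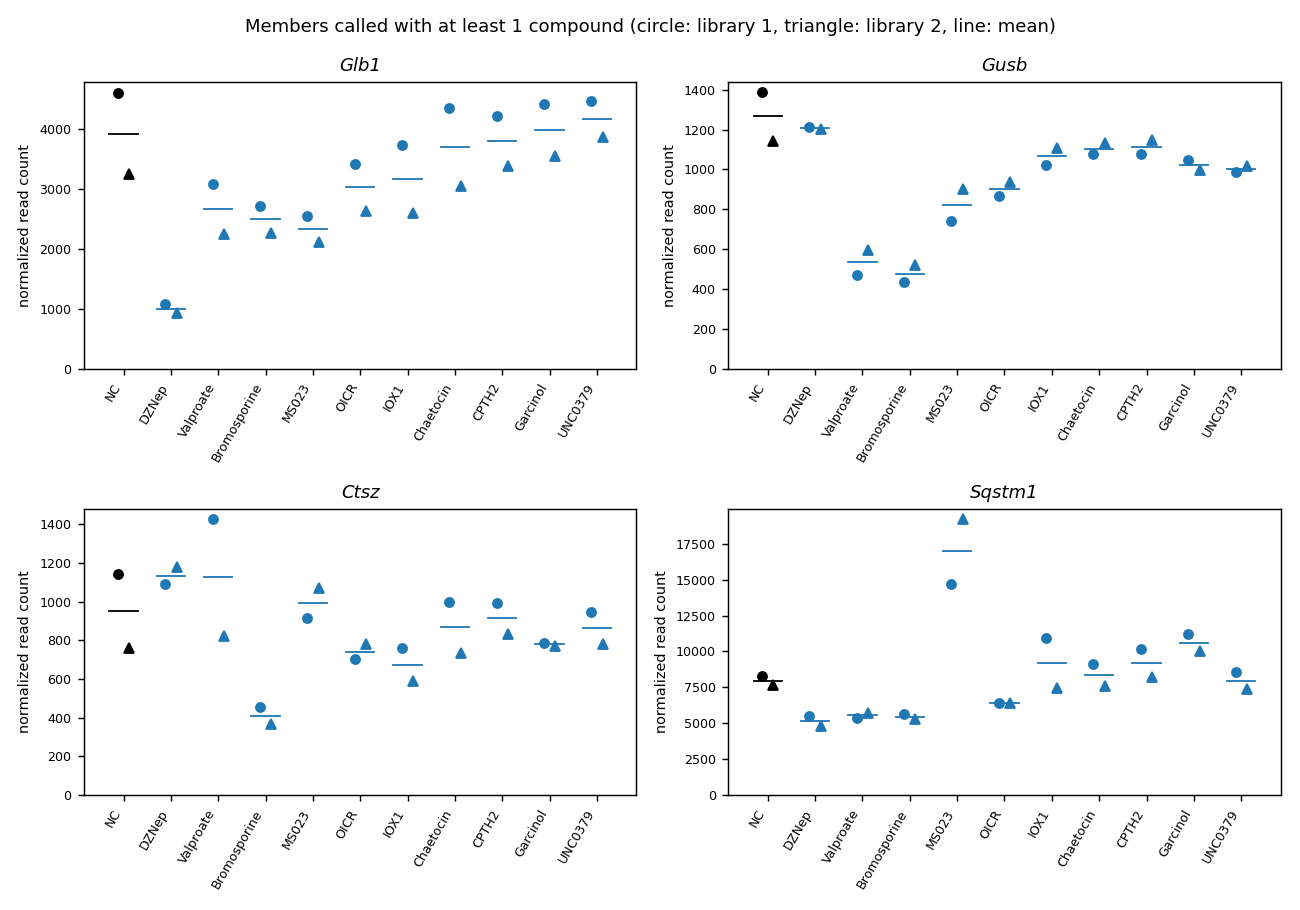
Normalized read counts (linear axes from 0) of Glb1, Gusb, Ctsz and Sqstm1 in the 22 libraries of 11 groups. Circles are libraries numbered 1, triangles libraries numbered 2, lines the mean of both, and NC is in black. DZNep stands below the rest for Glb1, Valproate and Bromosporine for Gusb, Bromosporine for Ctsz, and MS023 stands above the rest for Sqstm1.

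Genes for lipid handling and the lysosomal calcium channel did not pass the test with any compound. Mcoln1, which encodes the channel TRPML1, had the largest range of group means among them (0.68 on the log2 scale). Per library it measured 1719 and 1156 in NC, 1438 and 1100 with DZNep, 2881 and 1415 with Valproate, 2028 and 1325 with Bromosporine and 1498 and 1519 with MS023. Mcoln1 measured 1498 and 1257 with OICR, 1655 and 1095 with IOX1, 2005 and 1256 with Chaetocin, 1803 and 1224 with CPTH2, 1760 and 1312 with Garcinol and 1733 and 1202 with UNC0379. Its highest mean was with Valproate, 0.52 above NC on the log2 scale (SE 0.37, adjusted p = 0.421 by limma). Library 1 at 2881 lay above both NC values, and library 2 at 1415 lay between them. Each was above the NC library of the same number, 1719 and 1156. Library 1 was the higher in 10 of the 11 groups. Psap encodes the precursor of the saposins, and Npc1 and Npc2 carry cholesterol out of the lysosome. They ranged from 10168 to 20719, from 1526 to 2474 and from 5094 to 12053.

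The proton pump acidifies the lysosome. None of its 3 subunit genes passed with any compound, and their log2 changes lay between -0.39 and 0.35. Atp6ap1, an accessory subunit, had the largest range (0.72 on the log2 scale). Values were 3480 and 2417 in NC, 2991 and 2687 with DZNep, 2638 and 1912 with Valproate, 3189 and 2060 with Bromosporine and 3772 and 3629 with MS023. Atp6ap1 measured 2894 and 2555 with OICR, 3321 and 2173 with IOX1, 3792 and 2534 with Chaetocin, 3575 and 2430 with CPTH2, 3707 and 2733 with Garcinol and 3429 and 2581 with UNC0379. The 2 MS023 values, 3772 and 3629, lay above both of NC, a log2 change of 0.35 (SE 0.30, adjusted p = 0.661). Atp6v0d1 and Atp6v1h ranged from 2174 to 3980 and from 3331 to 5616.

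Sqstm1 encodes p62, which binds ubiquitylated cargo and ATG8 proteins and is itself degraded by autophagy (chr11:50199366-50210827, minus strand, mm10). It rose with MS023. Read counts of libraries 1 and 2 were 8309 and 7633 in NC, 5488 and 4809 with DZNep, 5372 and 5726 with Valproate, 5658 and 5268 with Bromosporine and 14713 and 19230 with MS023. Sqstm1 measured 6377 and 6428 with OICR, 10935 and 7472 with IOX1, 9098 and 7573 with Chaetocin, 10193 and 8244 with CPTH2, 11215 and 10033 with Garcinol and 8544 and 7405 with UNC0379. Both MS023 values lay above every other library, the next being 11215 with Garcinol. The mean went from 7971 ± 478.0 in NC to 16971.5 ± 3194.0 (SD, n = 2 each), 2.11-fold higher, a log2 change of 1.08 (SE 0.18, adjusted p = 0.00897). The call was lost without MS023 library 2 (0.89, adjusted p = 0.0825), NC library 1 (1.14, 0.0625) or NC library 2 (1.02, 0.0601), and in a fit of only NC and MS023 (0.146).

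With DZNep, Sqstm1 fell by 0.63 on the log2 scale (SE 0.18, adjusted p = 0.0203), under the fold threshold. This p was above 0.05 without DZNep library 2 (0.103), NC library 1 (0.132) or NC library 2 (0.0502). Sqstm1 overlaps Mrnip on the opposite strand and shares 20.9% of its 31-base stretches with it. Whether reads were counted by strand is not given in the sources used here, so reads of both genes may be mixed in its values.

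The ATG8 proteins, here Map1lc3a and Map1lc3b of the LC3 group and Gabarapl1 and Gabarapl2 of the GABARAP group, are joined to the lipid of the autophagosome membrane. Gabarapl2 had the largest range of group means (1.81 on the log2 scale). The libraries numbered 1 and 2 held 3769 and 5700 in NC, 10049 and 14138 with DZNep, 4290 and 7080 with Valproate, 3599 and 5495 with Bromosporine and 4434 and 6111 with MS023. Gabarapl2 measured 3705 and 6388 with OICR, 2474 and 6659 with IOX1, 2488 and 4670 with Chaetocin, 2524 and 5015 with CPTH2, 2133 and 5415 with Garcinol and 3379 and 6269 with UNC0379. Both DZNep values lay above every other library, the next being 7080 with Valproate. The change of 1.36 (SE 0.58) had an adjusted p of 0.106. Between libraries of the same number it was 1.41 and 1.31, and in each of the 11 groups library 2 was the higher, by up to 1.43 on the log2 scale. With the library number as a block in the limma fit, the change was called (adjusted p = 0.000233). Gabarapl2 shares 15.6% of its 31-base stretches with Gm3724.

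Gabarapl1 differed in the other direction, at 892 and 832 with DZNep and 2316 and 1310 in NC (log2 change -1.01, SE 0.54, adjusted p = 0.188). With the library number as a block it was called (adjusted p = 0.00633). Map1lc3a rose with Valproate, from 1235 and 1270 to 1763 and 2000, the highest values of all libraries. Its log2 change was 0.58 (SE 0.14, adjusted p = 0.0147), under the fold threshold. That p was above 0.05 without NC library 1 (0.0897), NC library 2 (0.0642) or Valproate library 2 (0.0901). Map1lc3b passed with no compound.

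Ulk1 encodes the kinase that starts autophagy. It rose with DZNep and with Valproate, by less than 2-fold. Normalized read counts were 11042 and 11818 in NC, 18732 and 20262 with DZNep, 13812 and 20719 with Valproate, 14685 and 12545 with Bromosporine and 10298 and 10919 with MS023. Ulk1 measured 13311 and 14981 with OICR, 8701 and 9669 with IOX1, 10168 and 11042 with Chaetocin, 11200 and 11656 with CPTH2, 10919 and 10662 with Garcinol and 11348 and 12545 with UNC0379. The DZNep values lay above all others but 1 Valproate library. With DZNep the log2 change was 0.77 (SE 0.15, adjusted p = 0.00266), a fold of 1.71, which held without any single library of NC or DZNep. With Valproate it was 0.57 (SE 0.15, adjusted p = 0.0304), and without Valproate library 2 it was 0.27 (adjusted p = 0.205). The Valproate value did not pass without NC library 1 (0.162) or NC library 2 (0.0907) either.

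Becn1 encodes Beclin 1, a subunit of the lipid kinase complex. It rose with MS023, from 2578 and 2644 to 3823 and 3460, the highest values of all libraries (log2 change 0.48, SE 0.11, adjusted p = 0.0438). That p was above 0.05 without MS023 library 1 (0.305), MS023 library 2 (0.102), NC library 1 (0.243) or NC library 2 (0.138). Becn1 overlaps Cntd1 on the opposite strand and shares 48.1% of its 31-base stretches with it. Atg5 and Atg7, which act in the conjugation of ATG8 proteins, varied little, from 785 to 1065 and from 478 to 649, and passed with no compound. Wipi1, which binds the lipid that the complex makes, and Uvrag, a partner of Beclin 1, ranged from 265 to 564 and from 920 to 1399 and did not pass either.

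A gene called with 1 compound and not with another need not differ between them, so DZNep, Valproate and Bromosporine were compared directly. Between DZNep and Valproate, 2 members were called (10.8% of all genes). Glb1 was lower with DZNep by 1.40 on the log2 scale (95% interval of the difference -1.94 to -0.86, adjusted p = 0.00146), and Gusb was higher by 1.19 (0.89 to 1.49, adjusted p = 8.04e-05). Between DZNep and Bromosporine, 6 were called (14.8% of all genes). Glb1 was lower with DZNep, by a log2 difference of -1.31 (adjusted p = 0.00169). Mitf (1.69, adjusted p = 0.0406), Ctsd (1.07, 0.0392), Ctsz (1.47, 0.000918), Gaa (1.64, 0.00566) and Gusb (1.35, 1.97e-05) were higher. Between Valproate and Bromosporine, 2 were called (8.64% of all genes), Ctsz (1.41, adjusted p = 0.00299) and Gaa (1.40, 0.0243), both higher with Valproate. On the adjusted p alone these numbers were 4, 10 and 5, beside 23.2%, 27.9% and 15.4% of all genes.

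Some of these differences rested on single libraries. Without Bromosporine library 2, 3 of the 6 calls between DZNep and Bromosporine were left, as Mitf (adjusted p = 0.11), Ctsd (0.157) and Gaa (0.0589) no longer passed. Mitf and Ctsd also did not pass without DZNep library 1 (0.271 and 0.197) or Bromosporine library 1 (0.154 and 0.0994). Gaa between Valproate and Bromosporine did not pass without Bromosporine library 2 (0.191) or Valproate library 1 (0.194). Apart from single libraries, fits of only the groups compared called no member between DZNep and Valproate or between Valproate and Bromosporine. Those fits estimate the spread from fewer libraries, and the share of all genes called in them was not counted. In all of these cases, the direction of the difference was kept. Ctsd shares 37.1% of its 31-base stretches with Gm49369, which overlaps it on the same strand.

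**Figure D3:**
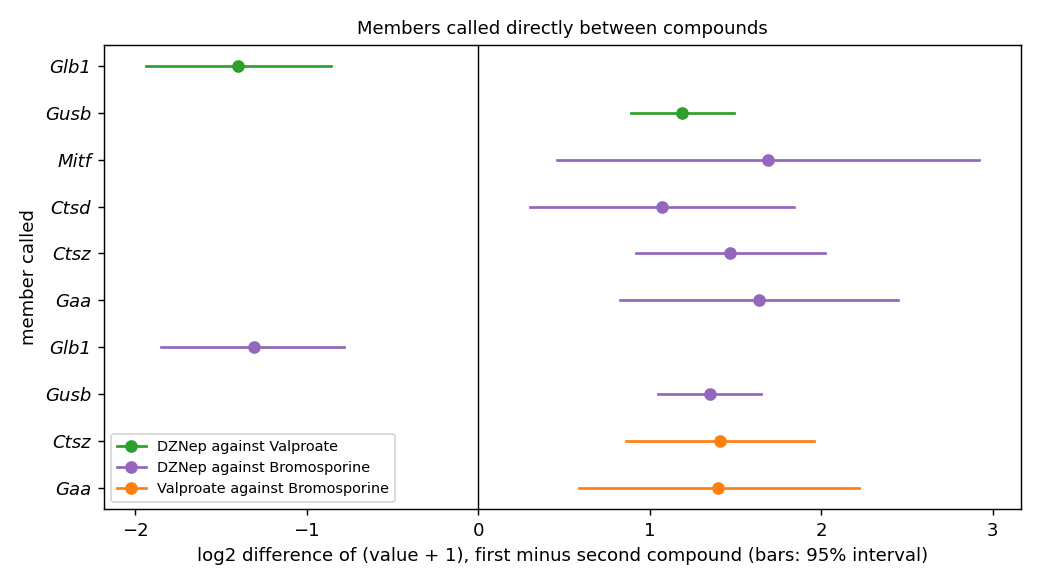
Log2 difference (points) with its 95% interval (bars) for the members called directly between DZNep, Valproate and Bromosporine. Positive values mean higher with the compound named first. Gusb has the narrowest intervals and Mitf, at 0.46 to 2.92, the widest.

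The other genes of the pathway were examined with a list of 141, of which 139 were in the table and 138 were tested. By the F-test 44 of the 138 (31.9%) passed, beside 29.7% of all genes. With DZNep 12 were called, 3 higher and 9 lower (8.7%, beside 11.4% of all genes), and this fell to 7 without NC library 1. With Valproate 4 were called, 2 in each direction, and 1 without Valproate library 1. With Bromosporine 3 were called, all lower, and with MS023 2, both lower. In fits of only NC and the compound, 3 were called with DZNep and 0 with Valproate, Bromosporine and MS023, and of those named next Wdr45 and Atg13 were called. None was called with the other 6 compounds, where 0 to 22 had an unadjusted p under 0.05.

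Arsb (arylsulfatase B), which acts in glycosaminoglycan breakdown, was called lower with 3 compounds. It measured 158 and 138 in NC, 38 and 55 with DZNep, 38 and 37 with MS023, and 50 and 93 with Valproate. Its log2 changes were -1.67 (SE 0.32, adjusted p = 0.00232), -1.95 (SE 0.32, 0.00897) and -1.10 (SE 0.32, 0.0452). The MS023 call was lost without NC library 1 (adjusted p = 0.0923), MS023 library 1 (0.0655) or MS023 library 2 (0.0588), and the Valproate call without NC library 1 (0.205), NC library 2 (0.12) or Valproate library 1 (0.346). Galns, another sulfatase, measured 132 and 92 in NC, 24 and 28 with DZNep and 52 and 51 with MS023. It fell by 2.05 with DZNep (adjusted p = 0.000109) and by 1.08 with MS023 (0.0435), the latter not without NC library 1 (0.339), NC library 2 (0.0592), MS023 library 1 (0.207) or MS023 library 2 (0.17).

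Acp5, an acid phosphatase, measured 405 and 195 in NC, 58 and 70 with DZNep (log2 change -2.12, adjusted p = 0.00508) and 80 and 101 with Valproate (-1.63, 0.0399). Neither call held without NC library 1 (adjusted p = 0.0763 and 0.301), and the Valproate call was also lost without Valproate library 1 (0.198) or library 2 (0.0814). Sort1, a sorting receptor, went from 1011 and 993 to 263 and 430 with DZNep (-1.57, SE 0.24, adjusted p = 0.000462), which held without any single library. Bnip3, a mitophagy receptor, went from 766 and 512 to 255 and 160 with DZNep (-1.63, adjusted p = 0.0146), a call lost without DZNep library 2 (0.0983) or NC library 1 (0.134).

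The 3 genes called higher with DZNep are given because of values already seen. Wdr45, which binds the lipid made at the forming autophagosome, went from 389 and 517 in NC to 1336 and 1262 (1.53, SE 0.26, adjusted p = 0.000971), which held without any single library. Atg13, a subunit of the ULK1 complex, went from 2732 and 3105 to 5556 and 6876 (1.09, SE 0.12, adjusted p = 6.03e-05). Its log2 change was under the fold threshold without DZNep library 2 (0.93) or NC library 1 (0.99). Tpcn2, a lysosomal ion channel, went from 92 and 125 to 245 and 202 (1.05, SE 0.27, adjusted p = 0.0133), a call lost without DZNep library 1 (0.0808) or NC library 1 (0.136).

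Sgsh, which also acts in glycosaminoglycan breakdown, rose with Valproate from 69 and 64 to 186 and 152 (1.33, SE 0.28, adjusted p = 0.00874). Tpcn2 also rose with Valproate, to 205 and 309 (1.22, SE 0.27, adjusted p = 0.0115). The Sgsh call was lost without NC library 2 (0.0581) or Valproate library 1 (0.0757), and the Tpcn2 call without NC library 1 (0.112) or Valproate library 2 (0.0921). With Bromosporine, Lipa (lysosomal acid lipase) went from 357 and 296 to 139 and 124 (-1.30, SE 0.21, adjusted p = 0.00326), which held without any single library. Ctsc (cathepsin C) went from 8304 and 5517 to 3591 and 3182 (adjusted p = 0.0385), just past the fold threshold, and not without NC library 1 (0.326), Bromosporine library 1 (0.127) or Bromosporine library 2 (0.175). Ctsh (cathepsin H), named after its values were seen, was at 17 in both NC libraries and is listed at 0 in both with Bromosporine.

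Over the 35 genes the median log2 change was small with every compound. It was 0.177 with MS023, 0.108 with Garcinol, 0.097 with CPTH2, 0.065 with Valproate and 0.034 with UNC0379. It was -0.038 with Chaetocin, -0.055 with Bromosporine, -0.084 with OICR, -0.089 with IOX1 and -0.164 with DZNep. Over all tested genes these medians lay between -0.036 and 0.007. Of the 35 genes, 27 were higher than NC with CPTH2, 26 with MS023, 24 each with Garcinol and Valproate and 20 with UNC0379. With the other compounds 12 to 17 were higher. Of all 17275 tested genes, 7757 (Chaetocin) to 8833 (Bromosporine) were higher. Without NC library 1 the median was 0.004 with DZNep and 0.111 with Bromosporine, and without NC library 2 it was -0.294 and -0.199. The sign held without any single library of NC or the compound with MS023 (0.07 to 0.386) and Valproate (0.034 to 0.335), and turned with each of the other 8 compounds. Leaving out 1 library also leaves NC and the compound unequal in library numbers. In NC the median log2 difference of the 35 genes between libraries 1 and 2 was 0.37. The part of this in the turns of sign was not tested.

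**Figure D4:**
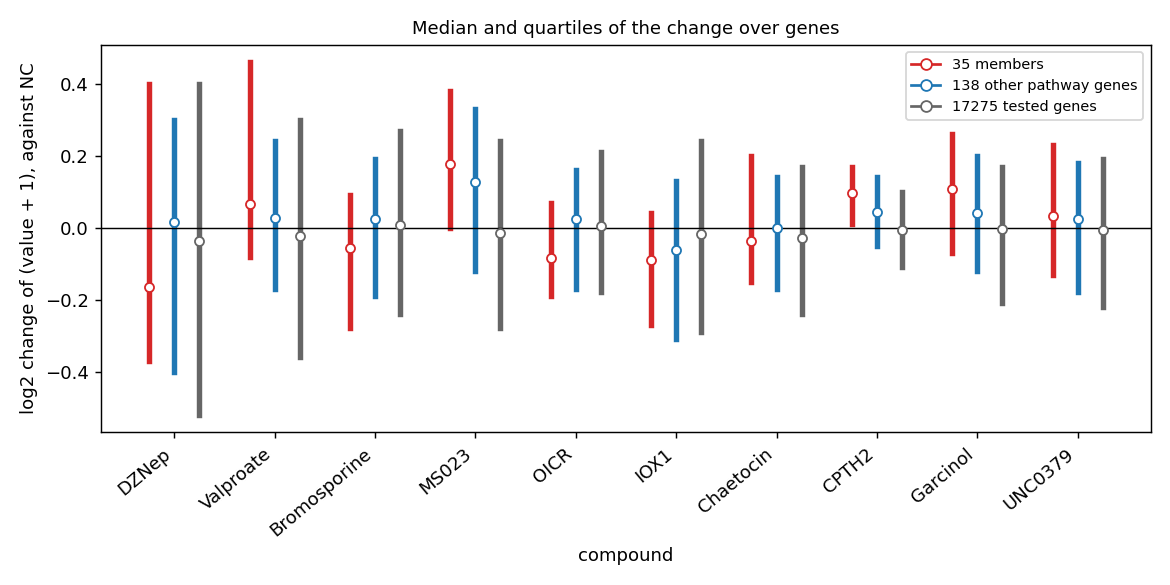
Median (open points) and quartiles (bars) of the log2 change against NC, over the 35 genes (red), 138 other pathway genes (blue) and 17275 tested genes (grey), for 10 compounds. With DZNep the quartiles span -0.37 to 0.40 over the 35 genes and -0.52 to 0.40 over all genes.

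The difference between the 2 libraries of a group was similar from group to group for many of these genes. Library 1 was higher than library 2 in all 11 groups for 12 of the 35 (34.3%), beside 8.75% of all tested genes. These were Lamp1, Lamp2, Ctsa, Ctsb, Ctsd, Ctsl, Hexa, Glb1, Npc2, Atp6ap1, Map1lc3b and Gabarapl1. Most encode proteins of the lysosomal lumen or membrane. Library 2 was higher in all 11 groups for 3 (8.57%, beside 12.3% of all genes), Tfeb, Atp6v1h and Gabarapl2. Among the other pathway genes, library 1 was the higher in all groups for 33 of 138 (23.9%) and library 2 for 6 (4.35%). The labels do not say what the numbers stand for.

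For Lamp2 and Hexa the median of this difference over the groups was larger than any change with a compound. For the called members it was smaller than the called changes. The call rule asked for a change over 2-fold and set it against the spread between libraries of a group. Genes with a large difference between library numbers were therefore less likely to be called, and the comparison is no separate support for the calls. The median over the 11 groups was 1.01 on the log2 scale for Lamp2, 0.94 for Hexa, 0.82 for Gabarapl1 and 0.81 for Ctsa, and -0.79 for Gabarapl2. Genes of autophagy initiation differed less, with medians of 0.07 for Atg5, 0.09 for Becn1 and -0.11 for Ulk1. Of the called members, the medians were 0.32 for Glb1, 0.28 for Ctsz, 0.16 for Sqstm1 and -0.09 for Gusb. Their called changes were -1.95 for Glb1, -1.19 for Ctsz, 1.08 for Sqstm1, and -1.41 and -1.25 for Gusb. The group treated with MS023 stood apart, as 16 of 35 genes were higher in its library 1 and the median difference was 0.00. In the other groups that median lay between 0.10 with OICR and 0.41 with Chaetocin, with 22 to 29 genes higher in library 1. Over all genes it lay between -0.04 and -0.01 in every group.

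**Figure D5:**
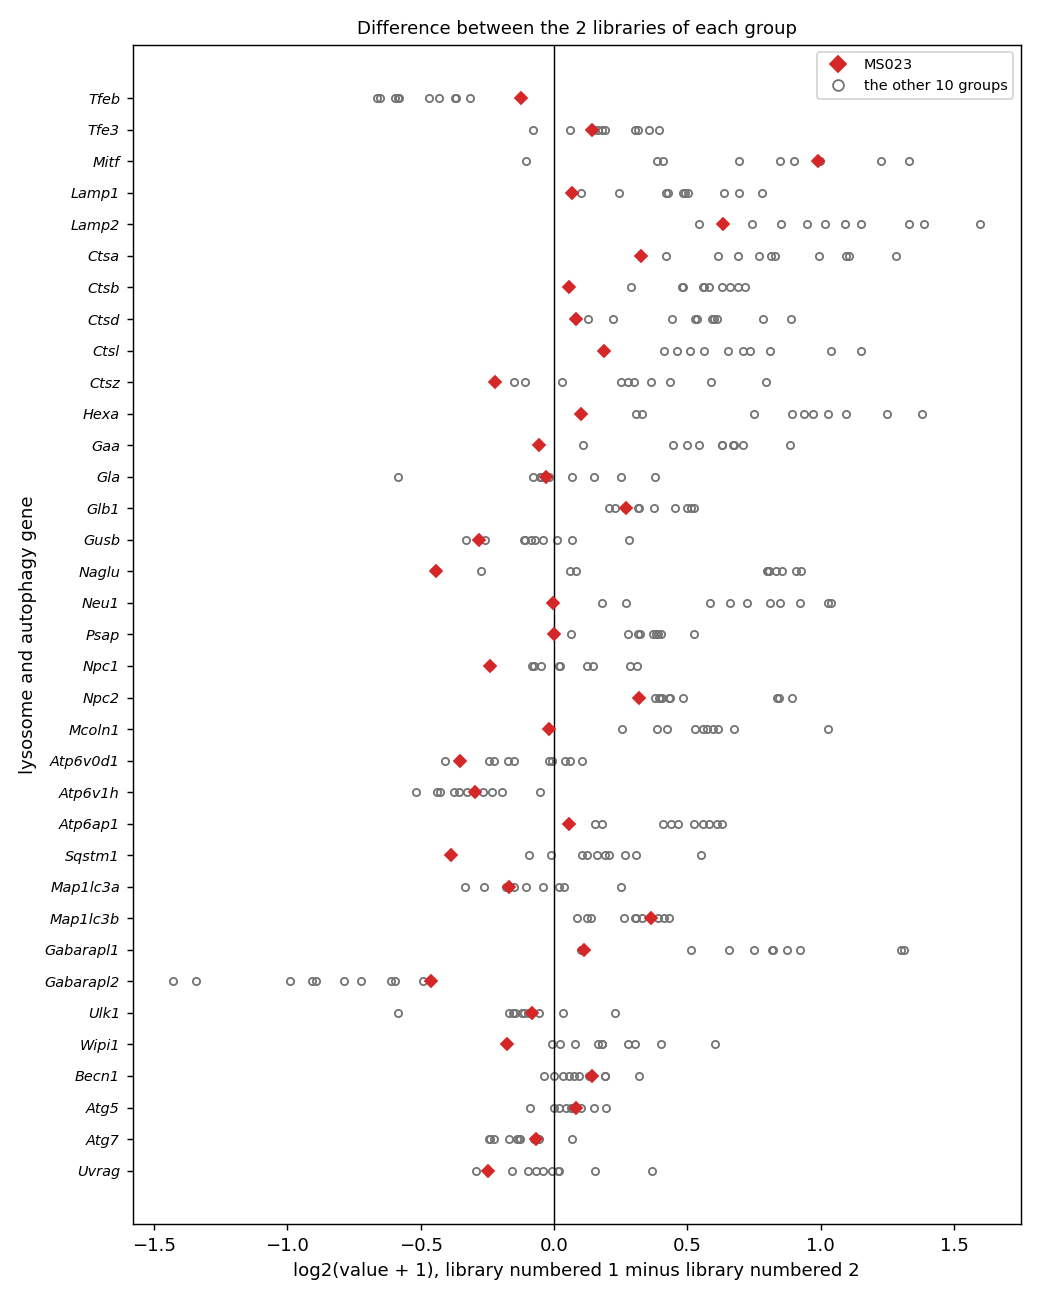
Log2 difference between the library numbered 1 and that numbered 2 in each group (points) for the 35 genes (rows). Red diamonds are MS023 and open circles the other 10 groups. For 12 genes all points lie to the right of 0 and for Tfeb, Atp6v1h and Gabarapl2 all lie to the left.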

How the data were processed

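RNA from E14 cells was sequenced in 22 libraries of 11 groups. The authors enriched poly(A) RNA with oligo-dT beads. Per the labels, bcl2fastq, Bowtie2 2.2.5 and RSEM were used with mm10, but which route of the study's methods made this table is not given in the sources used here. The deposited values are treated as a score, since they are read counts that the authors full-quantile normalized and rounded, and not raw counts. This scaling removes depth and total RNA. The authors' group means, in another deposited table, differed from the means of these libraries by at most 0 and were not used further. There were 0 columns without a sample.

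Values were analysed as log2(value + 1) with limma 3.58.1 in R 4.3.3, so fold changes of low genes are understated. Genes at 10 or more in at least 2 libraries were kept (17275 of 18487). All 22 libraries entered 1 fit of 11 group means (11 residual degrees of freedom, variances moderated with a trend). Tests were two-sided, with Benjamini-Hochberg adjustment over all tested genes in each contrast. The fit was tested on simulated data. Values in every library were given for called members, the MiT factors and the member with the largest range of group means in each role, and for up to 5 called pathway genes per compound with a group mean of at least 100. The members and lists were chosen with earlier results of these data known. Positions, overlaps and shared 31-base stretches came from GENCODE M21 (mm10), promoters from RefSeq. Alternatives were a pseudocount of 10, no filter, rescaling by median ratios, fits of only the groups compared, another reference, adjustment over all contrasts, a replicate block and leaving out each library. Leaving out each library for the F-test was chosen after seeing the data. Plots were made with matplotlib 3.10.9 in Python 3.11.15.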

Additional observations from a re-analysis of the deposited data

How the results depend on the processing

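In fits of only the groups compared, no member was called with Bromosporine, MS023 or Valproate (0 each), nor between DZNep and Valproate or Valproate and Bromosporine (0 each), and the call of Glb1 with DZNep remained. In those fits 3 other pathway genes were called with DZNep and 0 with Bromosporine, MS023 and Valproate. The shares of all genes called against NC were lower there too. They were 4.01% with DZNep, 0.623% with Valproate, 0.343% with Bromosporine and 0.385% with MS023, beside 11.4%, 5.28%, 3.34% and 0.973% in the main fit. On the adjusted p alone, 4 members passed with DZNep, 3 with MS023, 4 with Valproate, and 4, 10 and 5 in the direct comparisons of DZNep with Valproate, DZNep with Bromosporine and Valproate with Bromosporine. On that rule 31 other pathway genes passed with DZNep, 15 with Valproate, 6 with Bromosporine and 4 with MS023. A pseudocount of 10 gave 2 members with DZNep and 1 other pathway gene with MS023, rescaling by median ratios 1 other pathway gene with MS023, and adjustment over all contrasts 2 other pathway genes with Valproate. Against the mean of the other 9 compounds, 4 members were called with DZNep, and the median change of the members was 0.042 with CPTH2, 0.01 with Chaetocin and -0.132 with IOX1. Rescaling gave a median of 0.002 with Chaetocin. No named change of a single gene turned its direction under any of these settings.

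Leaving out 1 library at a time, the members called ranged from 1 to 2 with Bromosporine, 0 to 1 with MS023, 3 to 6 between DZNep and Bromosporine and 1 to 2 between Valproate and Bromosporine. Other pathway genes called ranged from 7 to 15 with DZNep, 0 to 1 with MS023 and 1 to 5 with Valproate. The members past the F-test numbered 6 to 9. The median change of the members ranged from -0.199 to 0.113 with Bromosporine, -0.115 to 0.254 with CPTH2, -0.157 to 0.192 with Chaetocin, -0.294 to 0.014 with DZNep, -0.054 to 0.282 with Garcinol, -0.268 to 0.183 with IOX1, -0.196 to 0.114 with OICR, -0.102 to 0.145 with UNC0379 and 0.034 to 0.335 with Valproate. The cause was not tested.

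The replicate number as a block gave 6 member calls with DZNep, 2 with Valproate and 4 between Valproate and Bromosporine. It called 12 pairs of member and compound in all, which included the 5 called without it, and the further ones were Mitf with Bromosporine (adjusted p = 0.0165), Naglu with Valproate (0.00807), and Gaa (0.000377), Naglu (0.0152), Neu1 (0.000728), Gabarapl1 (0.00633) and Gabarapl2 (0.000233) with DZNep. With the block 30 of 35 members passed the F-test, beside 65.9% of all genes, so that the members' share lay above that of all genes, where without it (20% and 29.7%) it lay below. With the block, 5 other pathway genes were called with Bromosporine and 7 with Valproate. The differences between library numbers correlated above 0.1 in 51 of 55 pairs of groups (0.0535 to 0.298), and the labels do not say that a number marks a shared culture or batch. Because 4 pairs lay at or under 0.1, the fit without the block was kept as the main one. The median correlation of values was 0.931 between libraries of the same group. Between groups it was 0.931 for libraries of the same number and 0.917 for those of different numbers. As a hint from the data that the numbers mark something shared, the mean correlation of each group's difference with those of the others was above 0 in 11 of 11 groups. The values do not show the depth each library reached, so no detection limit is given.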
